A study of Homo sapiens with 10 samples.

Results

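Cyclin messenger RNAs were followed in 2 lines made from the human osteosarcoma line U2OS, with and without siRNA to SET. The SET protein is a histone chaperone and an inhibitor of protein phosphatase 2A, and it binds p53. The genes were taken by symbol, 10 of the 25593 entries in each table of expression values: CCNA2, CCNB1, CCNB2, CCND1, CCND2, CCND3, CCNE1, CCNE2, CCNF and CCNG2. All 10 were found, and all 10 passed the filter on low values. CCNF and CCNG2 are not cyclins of the A, B, D or E classes and were kept because the list names them.

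The control CRISPR line is labelled p53 WT and the other line p53 KO. Each received control siRNA or SET siRNA for 96 h, which gave 3 control and 3 SET siRNA libraries of WT-labelled cells and 2 of each of KO-labelled cells. The labels call the libraries biological replicates and do not say whether each came from its own culture; the spread behind the p-values may therefore be technical. The design text mentions clone identification without saying how many clones were used. A difference between the lines therefore cannot be told apart from a difference between clones. It also names SET where the p53 construct would be meant, so groups follow the sample labels.

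Cyclins are the regulatory subunits of cyclin-dependent kinases (CDKs), and the abundance of most of them rises and falls over the cell cycle. D-type cyclins act with CDK4 and CDK6 in G1 and are linked to growth signals. E-type cyclins drive entry into S phase with CDK2, cyclin A acts in S phase and G2, and B-type cyclins drive mitosis with CDK1. Cyclin F is a substrate receptor of an SCF ubiquitin ligase and is not known to activate a CDK, while cyclin G2 is associated with cell cycle arrest. The p53 target p21, encoded by CDKN1A, inhibits CDKs, and many mitotic genes are repressed downstream of it through the DREAM complex, which binds promoter elements called the cell cycle genes homology region.

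The promoter windows of 7 of the 10 genes were in the RefSeq table (build GRCh38.p14), each covering 250 bases before to 50 after a start. CCND1, CCND2 and CCNE2 had no entry. The 130 bases before the start are shown for the S, G2 and mitosis cyclins CCNA2, CCNB1, CCNB2 and CCNF. They were picked after their fall with SET siRNA in WT-labelled cells was seen. CCNE1 and CCND3 also fell there and are not shown. Whether the motifs bear on these changes was not tested. Each sequence shown is written 5′ to 3′ on the strand of the gene. Capitals mark the homology region motif TTTGAA, its variant forms TTTAAA and also CTTGAA, and the CCAAT box, each searched on both strands.

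CCNA2 (chr4:121823884-121824013, minus strand): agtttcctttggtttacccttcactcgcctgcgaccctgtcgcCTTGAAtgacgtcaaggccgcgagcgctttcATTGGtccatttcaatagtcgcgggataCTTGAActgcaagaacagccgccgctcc
CCNB1 (chr5:69167020-69167149, plus strand): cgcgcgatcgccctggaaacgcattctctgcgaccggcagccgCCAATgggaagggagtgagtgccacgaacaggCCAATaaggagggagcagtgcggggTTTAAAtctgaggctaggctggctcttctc
CCNB2 (chr15:59105016-59105145, plus strand): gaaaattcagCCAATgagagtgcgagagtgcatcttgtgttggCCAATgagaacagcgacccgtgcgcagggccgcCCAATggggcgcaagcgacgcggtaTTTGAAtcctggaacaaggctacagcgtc
CCNF (chr16:2429317-2429446, plus strand): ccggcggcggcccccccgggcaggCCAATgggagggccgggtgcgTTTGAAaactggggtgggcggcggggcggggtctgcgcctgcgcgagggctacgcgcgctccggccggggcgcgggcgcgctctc

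Counted back from the start, CCNA2 held CTTGAA beginning at base 28, CCNB1 held TTTAAA at base 30 and CCNB2 held TTTGAA at base 29. A CCAAT motif began at base 55 in CCNB1 and base 54 in CCNB2, with a further copy at base 87 in both, and its reverse complement began at base 56 in CCNA2. CCNF held TTTGAA at base 85 and CCAAT at base 106. Further matches lay outside this spacing. CCNA2 held a second CTTGAA at base 87, and CCNB2 held TTTAAA at base 193 and CCAAT at bases 120 and 244. CCNF also held TTCGAA at base 233 and CCAAT at bases 210, 239 and 250. Among all 35116 windows of the table, 32.2% held the homology region motif in any of these forms or as TTCGAA, and 34.6% held CCAAT. CCNE1, which fell after SET siRNA in WT-labelled cells, and CCNG2, which rose, also held TTTAAA, at bases 28 and 73. Neither held CCAAT. CCND3, which also fell after SET siRNA in WT-labelled cells, held no form of the homology region motif in its 3 windows. CCAAT began at base 64 in 1 of them, on the reverse strand, and at base 136 in another. The remaining CCND3 window held the forkhead motif GTAAACA, beginning at base 2, a motif that 3.4% of all windows held. None of the 9 windows of the 7 genes held TTTGGCGC, TTTCCCGC, TTTCGCGC or TTTGCCGC, forms of the E2F site, which 3.3% of all windows held. These matches describe letters and do not show that a factor binds.

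Values are FPKM (fragments scaled to transcript length and library size), the authors' estimate per gene from Cufflinks. The libraries listed 13804 to 14153 genes at FPKM 1 or more, and relative depth read from the authors' confidence intervals spanned 0.908 to 1.38 of the first WT control library. For the cyclins, those intervals reached 2.08 to 20.8% of FPKM to either side of the value, widest for CCNE2. SET was 121 to 126 FPKM with control siRNA and 12.01 to 13.3 with SET siRNA in WT-labelled cells, and 158 to 169.7 and 14.89 to 14.93 in KO-labelled cells. CDKN1A was 153 to 169.8 FPKM in WT-labelled controls and 6.51 to 6.84 in KO-labelled controls. MDM2, another p53 target, was 40.9 ± 2.09 and 204 ± 14.3 FPKM with control and SET siRNA in WT-labelled cells (SD, n = 3 and 3) and 14.4 ± 1.86 and 16.6 ± 0.298 in KO-labelled cells (n = 2 and 2). A gene-level FPKM does not test the edit itself. The 2 KO control libraries stood furthest apart, with a median absolute log2 difference of 0.142 against 0.0701 to 0.094 for the other pairs within a group. Of 8 osteosarcoma and mesenchymal markers 6 reached FPKM 1, with VIM at 919.5 to 1465, while BGLAP and COL1A2 stayed below 1. All 6 fell with SET siRNA in both lines in the limma test described below. Of all tested genes 24.0% fell in WT-labelled and 17.9% in KO-labelled cells. The sum of the 8 went from 1901 to 1946 down to 1201 to 1318 FPKM in WT-labelled cells. In KO-labelled cells it went from 1983 to 2098 down to 1483 to 1618. Of 12 epithelial, blood and endothelial markers only EPCAM and CDH1 reached 1. The sum of all 12 was 3.29 to 3.54 and 5.28 to 7.23 FPKM with control and SET siRNA in WT-labelled cells, and 3.04 to 3.36 and 5.65 to 5.99 in KO-labelled cells, with HBB at 0 in every library. Whether the changes of these markers bear on the cyclin levels was not tested.

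SET siRNA moved all 10 cyclins in WT-labelled cells and 4 of them in KO-labelled cells. In limma, with adjusted p over 14813 genes, 2 rose and 8 fell in WT-labelled cells, where 54.8% of all tested genes were called, 30.8% higher and 24.0% lower. In KO-labelled cells 1 rose and 3 fell, where 37.6% were called, 19.8% higher and 17.9% lower. The 4 calls among the 10 were thus near the share of all tested genes there. More of the 10 were called there with either KO control library left out, a fit that leaves 1 library in that group. Without the first, the log2(FPKM + 1) estimates were 0.23 for CCNF, -0.03 for CCNB2 and -0.04 for CCNG2. Without the second they were 0.16 for CCNB2 and 0.23 for CCNG2. Without the first KO SET siRNA library the share of all genes called there was 23.4%, and without the second 25.0%. The median change of the 10 was -0.41 in WT-labelled and 0.02 in KO-labelled cells on the log2(FPKM + 1) scale, on which all later differences are given, against 0.04 and 0.02 over all tested genes. The response differed between the lines for 9 of the 10, 7 toward a lower and 2 toward a higher value in WT-labelled cells, where 19.1% of tested genes were called, 8.60% lower and 10.5% higher. That share was 7.72% and 9.90% without the first and second KO SET siRNA library, 31.0% and 11.6% without the first and second KO control library, and 12.3% and 11.9% without the first and second WT SET siRNA library. In bulk RNA, fewer cells in a phase of the cycle and less RNA per cell cannot be told apart.

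**Figure D1:**
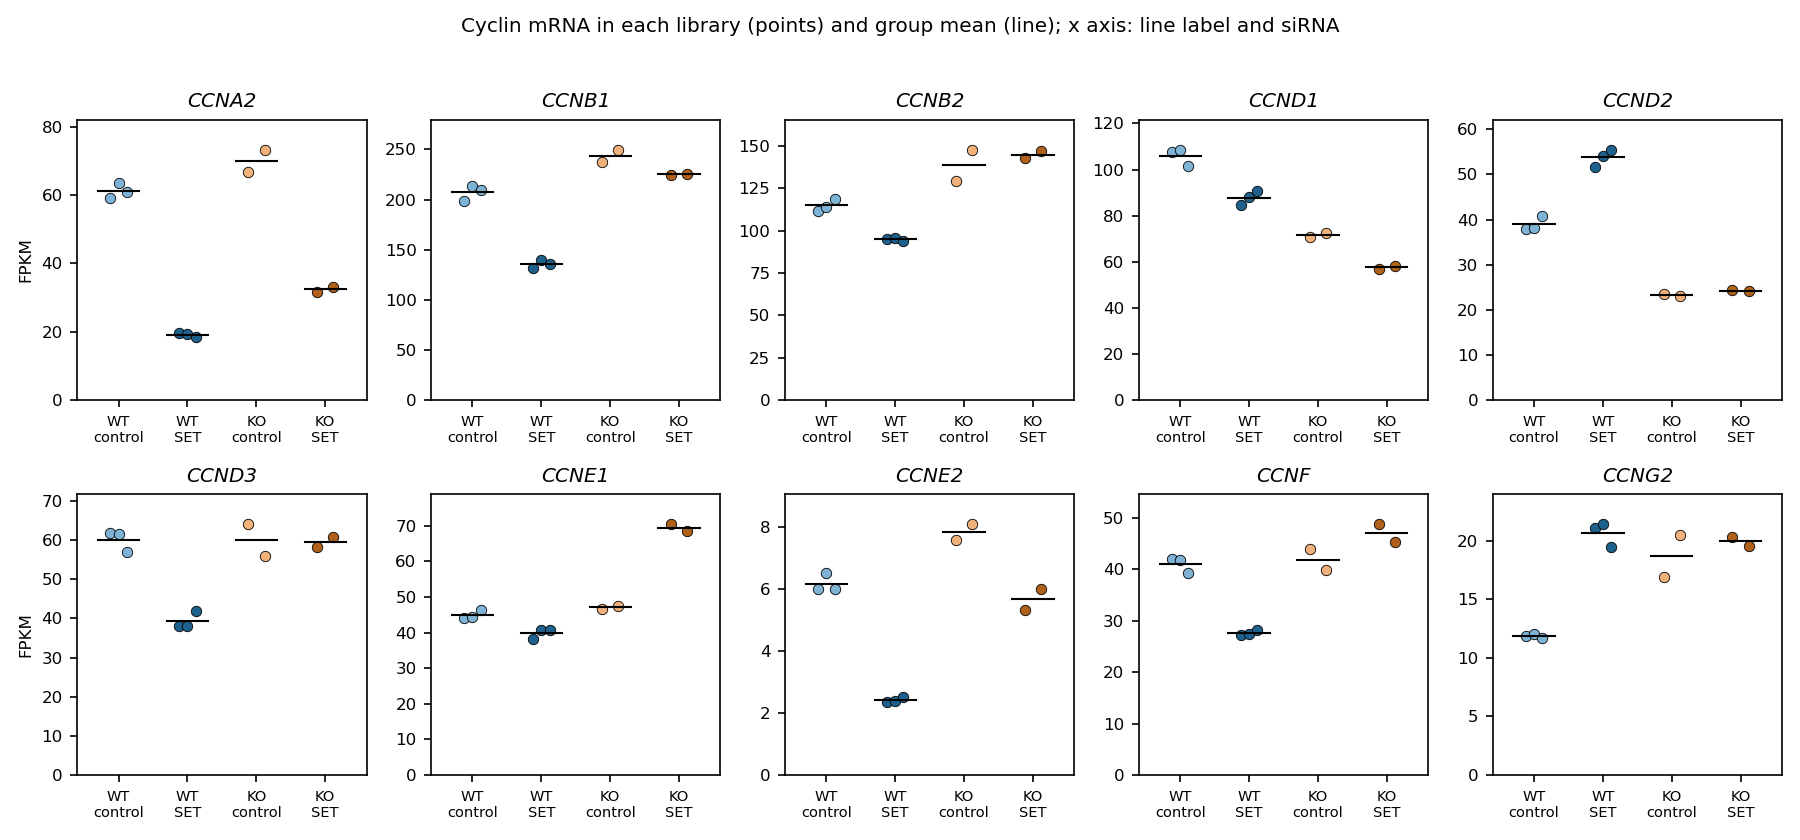
FPKM of each cyclin (y axis from 0, a scale per gene) in the 4 groups (x axis), with a point per library and a line at the group mean. CCNA2 is low after SET siRNA in both lines, CCNB1, CCNB2, CCND3 and CCNF are lowest in the WT-labelled SET siRNA libraries, and CCNE1 is highest in the KO-labelled SET siRNA libraries.

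CCNA2, cyclin A2, had the largest change of the 10 in either line. It was 59.1, 63.4 and 60.7 FPKM in WT-labelled controls and 19.7, 19.5 and 18.4 after SET depletion. KO-labelled cells held 66.6 and 73.3 FPKM with control and 31.6 and 33.2 with SET siRNA. Every SET siRNA library lay below every control library of either line. The mean was 3.19-fold lower with SET siRNA in WT-labelled cells (log2 change -1.62, SE 0.0506, adjusted p = 1.08e-07) and 2.16-fold lower in KO-labelled cells (-1.08, SE 0.062, adjusted p = 6.31e-06). The fall was larger in WT-labelled cells (difference of responses -0.54, 95% interval -0.72 to -0.36, adjusted p = 0.00313). CCNA2 (chromosome 4, 122737599 to 122745088 in the files' coordinates, build not given in the sources used here) overlaps EXOSC9, and the tables hold no strand. EXOSC9, an exosome subunit, was at 40.8 ± 0.863 and 36.9 ± 1.41 FPKM (SD, n = 3 and 3) in WT-labelled cells and 39.1 ± 3.22 and 40.0 ± 1.15 (n = 2 and 2) in KO-labelled cells.

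CCNB1, cyclin B1, was the most abundant of the 10 per length in every group. It was 198, 214 and 210 FPKM in WT-labelled controls and 132, 140 and 136 with SET siRNA, a change of -0.61 (SE 0.0429, adjusted p = 5.42e-06). KO-labelled cells held 238 and 249.7 FPKM with control and 225 and 226 with SET siRNA, which was not called (-0.11, 95% interval -0.23 to 0.01, adjusted p = 0.12). Quantile normalization gave -0.18 there, which was called (adjusted p = 0.0431). The groups did not overlap in either line, although the KO-labelled groups lay within 1.08-fold of each other by their means. With 2 libraries in each KO-labelled group, a lack of overlap carries little weight. The responses differed by -0.49 (adjusted p = 0.00224).

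CCNB2, the second B-type cyclin, was 112, 114 and 119 FPKM in WT-labelled controls and 95.3, 95.6 and 93.7 with SET siRNA (-0.27, SE 0.0512, adjusted p = 0.00172). KO-labelled cells held 129 and 148 FPKM with control and 143 and 147 with SET siRNA, and these groups overlapped (0.07, adjusted p = 0.433). Without the first KO control library the estimate was -0.03 (adjusted p = 0.675), and without the second it was 0.16 (adjusted p = 0.0435). The difference of responses was -0.34 (adjusted p = 0.021). That call was lost without either KO SET siRNA library (estimates of -0.36 and -0.32, adjusted p = 0.0641 and 0.0758) and under quantile normalization (-0.26, adjusted p = 0.0884).

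CCNF, cyclin F, was 42.0, 41.9 and 39.3 FPKM in WT-labelled controls and 27.1, 27.5 and 28.2 with SET siRNA, a change of -0.56 (SE 0.0505, adjusted p = 2.3e-05). In KO-labelled cells the values were 43.9 and 39.8 FPKM with control and 48.7 and 45.3 with SET siRNA. Here the SET siRNA libraries were the higher ones without overlap, which carries little weight with 2 libraries in each group. The gene was not called (0.16, 95% interval 0.03 to 0.30, adjusted p = 0.0629). Without the first KO control library the estimate was 0.23. The difference of responses was -0.72 (adjusted p = 0.000829).

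Within a library, CCNA2 moved against CCNB1 by a like amount in both lines. The ratio of CCNA2 to CCNB1 FPKM was 0.298, 0.296 and 0.29 in WT-labelled controls and 0.149, 0.139 and 0.135 with SET siRNA. For KO-labelled cells the ratio was 0.28 and 0.293 with control and 0.141 and 0.147 with SET siRNA. The ratio was thus lower with SET siRNA in each line with no overlap, and the 2 lines overlapped under the same siRNA. The ratio of CCNB1 to CCNB2 was 1.81 ± 0.0616 and 1.43 ± 0.0438 (SD, n = 3 and 3) in WT-labelled cells and 1.77 ± 0.106 and 1.56 ± 0.0277 (n = 2 and 2) in KO-labelled cells. These ratios are descriptions, without a test.

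**Figure D2:**
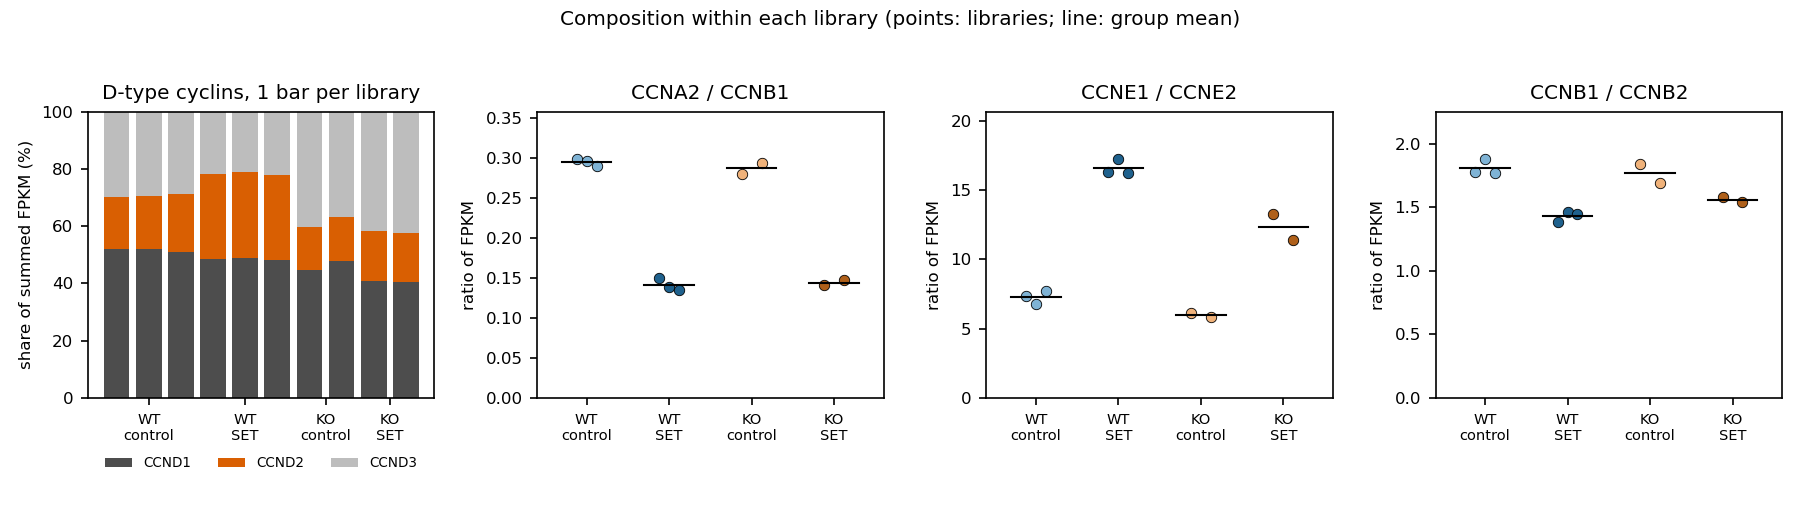
Share of each D-type cyclin in their summed FPKM (first panel, y axis in percent, a bar per library) and ratios of FPKM of gene pairs (other panels, points are libraries, lines group means). CCNA2 to CCNB1 sits at 0.28 to 0.298 in control libraries and 0.135 to 0.149 in SET siRNA libraries of both lines.

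The 3 D-type cyclins went different ways. CCND1, cyclin D1, was 108, 109 and 101.4 FPKM in WT-labelled controls and 84.8, 87.9 and 90.6 with SET siRNA (-0.27, SE 0.0413, adjusted p = 0.000534). In KO-labelled cells it was 70.7 and 72.6 FPKM with control and 57.1 and 58.1 with SET siRNA (-0.31, SE 0.0506, adjusted p = 0.00152). CCND1 was the only one of the 10 whose responses were not called different, with a difference of 0.04 (95% interval -0.10 to 0.19, adjusted p = 0.667). The groups of each line did not overlap, and every KO-labelled library lay below every WT-labelled library.

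CCND2, cyclin D2, rose in WT-labelled cells, from 37.8, 38.2 and 40.9 FPKM to 51.7, 54.1 and 55.5 with SET siRNA (0.45, SE 0.0439, adjusted p = 3.31e-05). In KO-labelled cells it was 23.6 and 23.1 FPKM with control and 24.5 and 24.1 with SET siRNA (0.05, 95% interval -0.07 to 0.17, adjusted p = 0.463). Its responses differed by 0.40 (adjusted p = 0.00618). CCND2 was thus 1.67-fold lower in KO-labelled than in WT-labelled cells under control siRNA, and 2.21-fold lower under SET siRNA.

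CCND3, cyclin D3, fell in WT-labelled cells, from 61.8, 61.5 and 57.1 FPKM to 38.1, 38.1 and 41.8 with SET siRNA (-0.60, SE 0.0617, adjusted p = 4.8e-05). KO-labelled cells held 64.0 and 56.0 FPKM with control and 58.2 and 60.7 with SET siRNA, overlapping groups (-0.01, 95% interval -0.18 to 0.16, adjusted p = 0.925). Its responses differed by -0.59 (adjusted p = 0.00506). CCND3 has 2 transcription start groups in the files and 3 promoter windows in RefSeq, and a gene-level FPKM does not say which of them changed.

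As a share of summed D-type FPKM, CCND2 was 18.3 to 20.5% in WT-labelled controls and 29.5 to 30.02% with SET siRNA, while CCND3 was 28.6 to 29.8% and 21.2 to 22.3%. In KO-labelled cells CCND2 was 14.9 to 15.2% and 16.9 to 17.5%, and CCND3 36.9 to 40.4% and 41.6 to 42.5%. The order of CCND2 and CCND3 was turned in the WT-labelled SET siRNA group and not in the other 3 groups. The summed D-type level was 205 ± 4.93 and 181 ± 6.66 FPKM in WT-labelled cells (SD, n = 3 and 3) and 155 ± 4.63 and 141 ± 2.14 in KO-labelled cells (n = 2 and 2).

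The E-type cyclins changed unlike each other. CCNE1, cyclin E1, was 44.1, 44.3 and 46.4 FPKM in WT-labelled controls and 38.2, 40.8 and 40.7 with SET siRNA (-0.17, SE 0.0406, adjusted p = 0.00649). In KO-labelled cells it rose from 46.7 and 47.4 FPKM to 70.4 and 68.6 (0.55, SE 0.0498, adjusted p = 6.05e-05), 1.48-fold. It was the only one of the 10 called in opposite directions in the lines, with a difference of responses of -0.72 (95% interval -0.87 to -0.58, adjusted p = 0.000301). The KO-labelled SET siRNA libraries lay above all 8 others.

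CCNE2, cyclin E2, was the least abundant of the 10 in every group. It fell from 5.98, 6.504 and 6.003 FPKM to 2.35, 2.37 and 2.51 in WT-labelled cells (-1.07, SE 0.0615, adjusted p = 1.77e-06). It fell from 7.57 and 8.08 to 5.31 and 6.01 in KO-labelled cells (-0.41, SE 0.0753, adjusted p = 0.00288). By means these were 2.56-fold and 1.38-fold lower, and with a pseudocount of 0.1 the log2 changes were -1.32 and -0.46. Its responses differed by -0.66 (adjusted p = 0.00297). The authors' intervals reached up to 20.8% of FPKM to either side for this gene. CCNE2 overlaps INTS8, an Integrator subunit at 14.7 ± 0.822 and 14.9 ± 0.412 FPKM (SD, n = 3 and 3) in WT-labelled cells and 18.0 ± 1.75 and 15.7 ± 0.714 (n = 2 and 2) in KO-labelled cells, with no strand in the tables. The ratio of CCNE1 to CCNE2 was 6.81 to 7.74 and 16.2 to 17.2 with control and SET siRNA in WT-labelled cells, and 5.87 to 6.17 and 11.4 to 13.2 in KO-labelled cells.

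CCNG2, cyclin G2, rose from 11.9, 12.1 and 11.7 FPKM to 21.1, 21.4 and 19.5 in WT-labelled cells, 1.74-fold (0.75, SE 0.0682, adjusted p = 2.4e-05). In KO-labelled cells it was 16.9 and 20.5 FPKM with control and 20.4 and 19.6 with SET siRNA (0.10, 95% interval -0.09 to 0.28, adjusted p = 0.396). The KO control pair spread as wide as the whole set of KO-labelled libraries. Without the first of the pair the estimate was -0.04 (adjusted p = 0.678), and without the second it was 0.23 (adjusted p = 0.0339). The difference of responses was 0.65 (adjusted p = 0.00508).

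**Figure D3:**
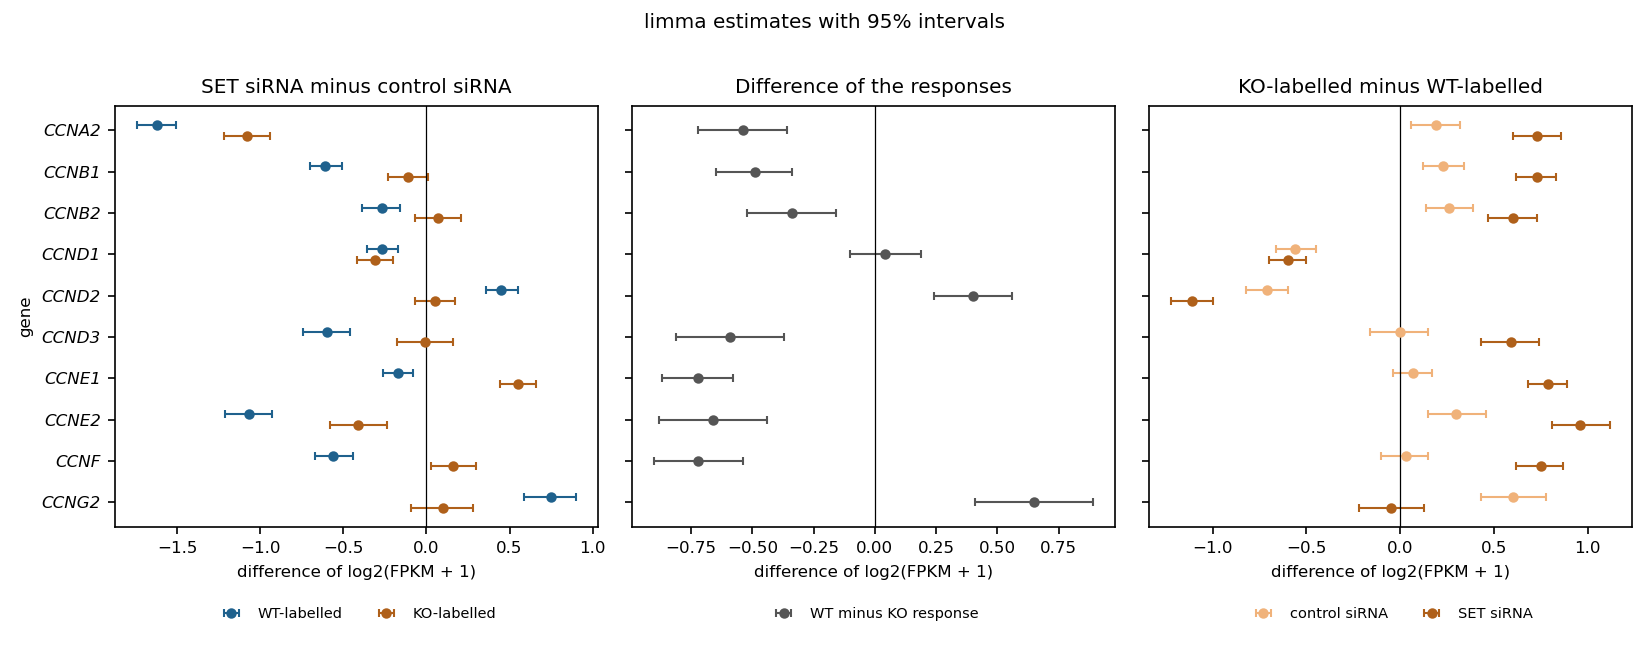
Differences of log2(FPKM + 1) (x axis) with 95% limma intervals for each cyclin (y axis): SET siRNA minus control in each line, the WT-labelled minus the KO-labelled response, and KO-labelled minus WT-labelled cells under each siRNA. The intervals of the middle panel exclude 0 for every gene but CCND1.

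Between the lines with control siRNA, 5 of the 10 were higher and 2 lower in KO-labelled cells, where 47.9% of tested genes were called, 25.7% higher and 22.2% lower. CCNG2 was higher by 0.60 (adjusted p = 0.000261), CCNE2 by 0.30, CCNB2 by 0.26 and CCNB1 by 0.23. CCNA2 was higher by 0.19 (adjusted p = 0.0208), a call that was lost under 4 alternatives. The estimate was 0.17 without the first WT control library (adjusted p = 0.0662), 0.19 in a fit of only these libraries (adjusted p = 0.0653) and 0.18 with array weights (adjusted p = 0.0728). It was 0.12 without the second KO control library (adjusted p = 0.157). CCND2 was lower by -0.71 (adjusted p = 7.55e-06) and CCND1 by -0.56 (adjusted p = 2.32e-05). CCND3, CCNE1 and CCNF were not called, with intervals of -0.16 to 0.15, -0.04 to 0.17 and -0.10 to 0.15. The median over the 10 was 0.13, against 0.02 over all tested genes.

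With SET siRNA, 7 were higher and 2 lower in KO-labelled cells, where 48.4% of tested genes were called, 23.6% higher and 24.8% lower. The 7 were CCNE2 at 0.96, CCNE1 at 0.79, CCNF at 0.75, CCNA2 and CCNB1 at 0.73, CCNB2 at 0.60 and CCND3 at 0.59, with adjusted p from 1.6e-06 to 0.000119. CCND2 was lower by -1.11 (adjusted p = 2.77e-07) and CCND1 by -0.60 (adjusted p = 8.97e-06). CCNG2 was not called (-0.05, 95% interval -0.22 to 0.13, adjusted p = 0.648). The median was 0.66, against 0.00 over all tested genes. These comparisons share libraries with the siRNA comparisons and are not independent of them.

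The order of the cyclins by FPKM, a level per length, changed with the group below the B-type pair. In WT-labelled controls it ran CCNB1, CCNB2, CCND1, CCNA2, CCND3, CCNE1, CCNF, CCND2, CCNG2 and CCNE2, where CCNA2 overlapped CCND3 and CCNF overlapped CCND2. With SET siRNA CCNA2 moved from rank 4 to rank 9 in WT-labelled cells, overlapping CCNG2. In KO-labelled controls CCND1 and CCNA2 overlapped at ranks 3 and 4. With SET siRNA CCNE1 stood at rank 3 there, above CCND3 and CCND1, with no overlap between neighbours.

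CCND2 lies at 12:4382902 to 4414522 in the files' coordinates, among genes that were also lower in KO-labelled cells. Of its 30 nearest expressed genes (15 on each side, mean FPKM of at least 5), 27 were lower and 0 higher under control siRNA, with a median of -0.55, where 22.2% of all tested genes were lower and 25.7% higher. Under SET siRNA 23 were lower and 1 higher, with a median of -0.52, where 24.8% of all tested genes were lower and 23.6% higher. FOXM1, a transcription factor of mitotic genes, was among them at -0.42 (adjusted p = 5.08e-05). The siRNA comparison in WT-labelled cells gave these neighbours a median of -0.03, with 13 lower and 8 higher, beside 24.0% lower and 30.8% higher of all tested genes and 0.45 for CCND2. For the neighbours of CCND1 the median between lines under control siRNA was -0.18, with 15 lower and 3 higher. Those of CCNF had a median of -0.21, with 14 lower and 0 higher, while CCNF itself was not called (0.03). Higher neighbours outnumbered lower ones for CCNG2 (17 and 5), CCNB1 (16 and 1), CCNE2 (15 and 1) and CCND3 (14 and 1). The same held for CCNE1 (12 and 4), CCNB2 (11 and 6) and CCNA2 (8 and 3). The 8 for CCNA2 were near the 25.7% of all tested genes that were higher. Medians of all these sets with more higher neighbours were 0.01 to 0.22, against 0.02 over all tested genes. CCNE1 at 0.01 and CCNA2 at 0.03 were near that value.

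**Figure D4:**
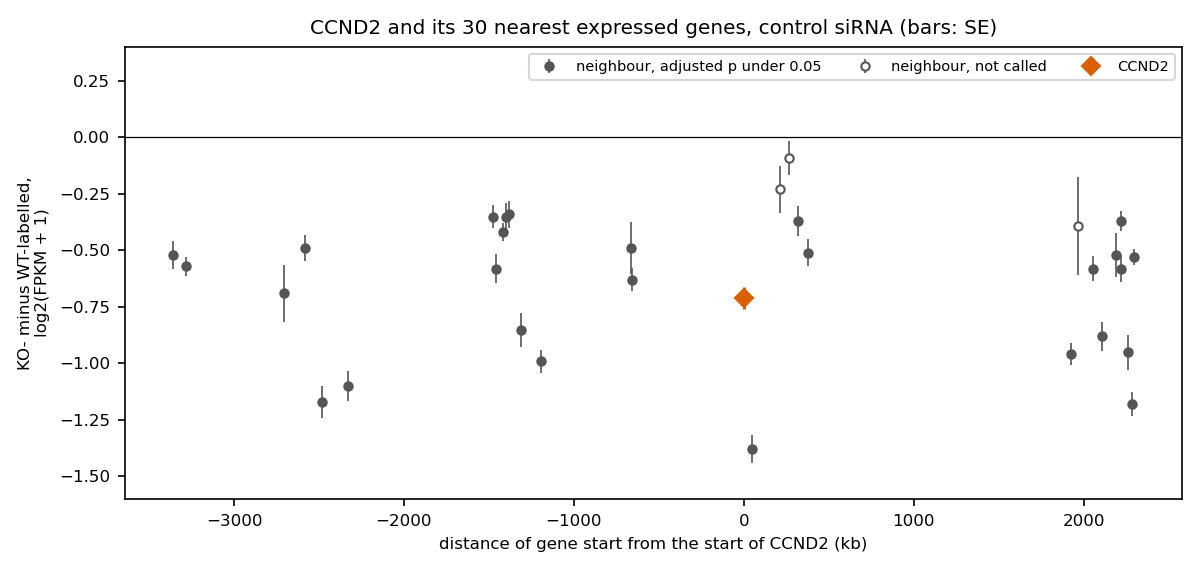
Difference between KO-labelled and WT-labelled cells with control siRNA (y axis, log2(FPKM + 1), bars are SE) for CCND2 and its 30 nearest expressed genes by distance from the start of CCND2 (x axis, kb). All lie below 0, from -0.09 to -1.38.

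The genes whose log2 levels followed a cyclin most closely over the 10 libraries were listed as a description, among 10308 other genes with mean FPKM of at least 5. CCNB1 was closest to the mitotic genes BUB1B, RACGAP1 and AURKA (Pearson r 0.994, 0.994 and 0.993). CCNA2 was closest to PLAGL2, CA12 and DIXDC1 (0.995, 0.993 and 0.992) and CCNG2 to ZNF326, SLC7A11 and CHM (0.993, 0.990 and 0.987). CCNE1 was closest to NDE1, PAPD7 and PPRC1 (0.981, 0.980 and 0.975). CCND1 was closest to CIAPIN1, CD9 and RSPRY1 (0.996, 0.994 and 0.994), of which CD9 is among the 30 neighbours of CCND2. The 10 libraries form 4 groups, so these values mostly compare group means.

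Counts in the lists that follow stand beside the shares of all tested genes. With SET siRNA in WT-labelled cells 30.8% were higher and 24.0% lower, with a median of 0.04. In KO-labelled cells 19.8% were higher and 17.9% lower, with a median of 0.02. For the difference of responses 10.5% were higher and 8.60% lower, with a median of 0.03.

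Among the 4 kinases that cyclins bind, in WT-labelled cells 4 of 4 fell with SET siRNA, CDK6 by -0.44, CDK2 by -0.40, CDK4 by -0.38 and CDK1 by -0.24, with a list median of -0.39. The share of all tested genes that fell was 24.0%. In KO-labelled cells 1 of 4 was called, CDK6 at -0.46 (adjusted p = 0.00135), near the 17.9% of all tested genes that fell, with a list median of -0.11. CDK1, the partner of B-type cyclins, was 118 ± 8.28 and 99.2 ± 0.15 FPKM in WT-labelled cells (SD, n = 3 and 3). The responses differed for CDK2 (-0.45, adjusted p = 0.0155) and CDK4 (-0.30, adjusted p = 0.014).

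Among CDK inhibitors 6 of 7 were tested, with CDKN2A listed at 0 to 0.271 FPKM. In WT-labelled cells 3 rose and 3 fell, with a median of 0.03 against 0.04 over all tested genes, of which 54.8% were called. CDKN1A rose by 2.15, and CDKN2C, the D-type kinase inhibitor p18, fell by -1.09 from 31.5 ± 1 to 14.3 ± 0.673 FPKM (n = 3 and 3). In KO-labelled cells 1 rose and 4 fell, with a median of -0.24 against 0.02 over all tested genes, of which 37.6% were called. These were CDKN1A at 1.41 against CDKN2B at -0.39, CDKN1C at -0.36, CDKN1B, which encodes p27, at -0.26 and CDKN2C at -0.21. CDKN1A remained 37.2-fold lower in KO-labelled than in WT-labelled cells under SET siRNA, at 19.4 ± 0.111 against 720.3 ± 21.2 FPKM (n = 2 and 3).

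Of 10 genes that activate or tune the cyclin kinases, 6 fell and 2 rose in WT-labelled cells, beside 24.0% and 30.8% of all tested genes, with a median of -0.30 against 0.04. The phosphatases CDC25A, CDC25C and CDC25B fell by -0.52, -0.50 and -0.48. In KO-labelled cells 4 rose and 2 fell, beside 19.8% and 17.9% of all tested genes, with a median of 0.14 against 0.02. CDC25A was at 0.31 there (adjusted p = 0.00247). The difference of responses was called lower for 7 of the 10 and higher for 0, beside 8.60% and 10.5% of all tested genes, with CDC25A at -0.83, PKMYT1 at -0.67 and CDC25B at -0.48.

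Of 17 genes of cyclin degradation, 4 rose and 6 fell in WT-labelled cells, with a median of -0.14 against 0.04. That number of calls is near the 54.8% called among all tested genes. FBXW7, the receptor that sends cyclin E to the proteasome, rose from 8.83 ± 0.658 to 21.7 ± 0.804 FPKM (n = 3 and 3; 1.21, adjusted p = 9.79e-07), and CDC20, which targets mitotic cyclins, fell by -1.07. In KO-labelled cells 4 rose and 0 fell, with a median of 0.09 against 0.02, fewer calls than the 37.6% among all tested genes. FBXW7 was at 6.66 ± 0.536 and 7.98 ± 0.111 FPKM there (n = 2 and 2; 0.23, adjusted p = 0.0405), and the ubiquitin-conjugating enzymes UBE2S and UBE2C rose by 0.49 and 0.34. The difference of responses was called higher for 1 of the 17, FBXW7 at 0.98 (adjusted p = 0.0005), and lower for 5. These were CDC20 at -1.04 (adjusted p = 0.00013), UBE2S at -0.79, FBXO5 at -0.62, SKP2 at -0.57 and UBE2C at -0.49. The list median was -0.13 against 0.03.

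Among 24 genes of cyclin gene transcription 7 rose and 8 fell in WT-labelled cells, near the 30.8% and 24.0% of all tested genes, with a median of -0.04 against 0.04. FOXO1, a forkhead factor, rose by 0.70, and E2F1, E2F5 and E2F2 fell by -0.58, -0.52 and -0.52. In KO-labelled cells 8 rose and 4 fell, beside 19.8% and 17.9% of all tested genes, with a median of 0.07 against 0.02. E2F7, a repressor, was at -0.55 and E2F2 at 0.52 there, both called. FOXO1 at 0.36, E2F5 at -0.49 and E2F1 at 0.31 were also called there. The difference of responses was called lower for 7 of the 24, higher for 2 and in neither direction for 15, with a median of -0.03 against 0.03. The lower ones included the activators E2F2 and E2F1 at -1.04 and -0.89, the repressor E2F8 at -0.71, FOXM1 at -0.59 and MYBL2 at -0.55. The higher ones were E2F7 at 0.78 (adjusted p = 0.00118) and RBL2, the pocket protein p130, at 0.41 (adjusted p = 0.0201).

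Of cyclins outside the 10, 15 of 17 listed were tested. In WT-labelled cells 11 rose and 2 fell, beside 30.8% and 24.0% of all tested genes, with a median of 0.34 against 0.04. Those that rose included CCNB3 at 0.84 and the transcription cyclins CCNT1 and CCNT2 at 0.55 and 0.46. In KO-labelled cells 6 rose and 3 fell, beside 19.8% and 17.9% of all tested genes, with a median of 0.17 against 0.02. CCNT1 and CCNT2 also rose there, at 0.43 and 0.23, while CCNB3 at 0.28 was not called. CCNG1, a p53 target, was 138 ± 5.17 and 162 ± 5.83 FPKM in WT-labelled cells (n = 3 and 3; 0.23, adjusted p = 0.021) and 123 ± 18.1 and 74.8 ± 1.34 in KO-labelled cells (n = 2 and 2; -0.70, adjusted p = 0.000352).

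**Figure D5:**
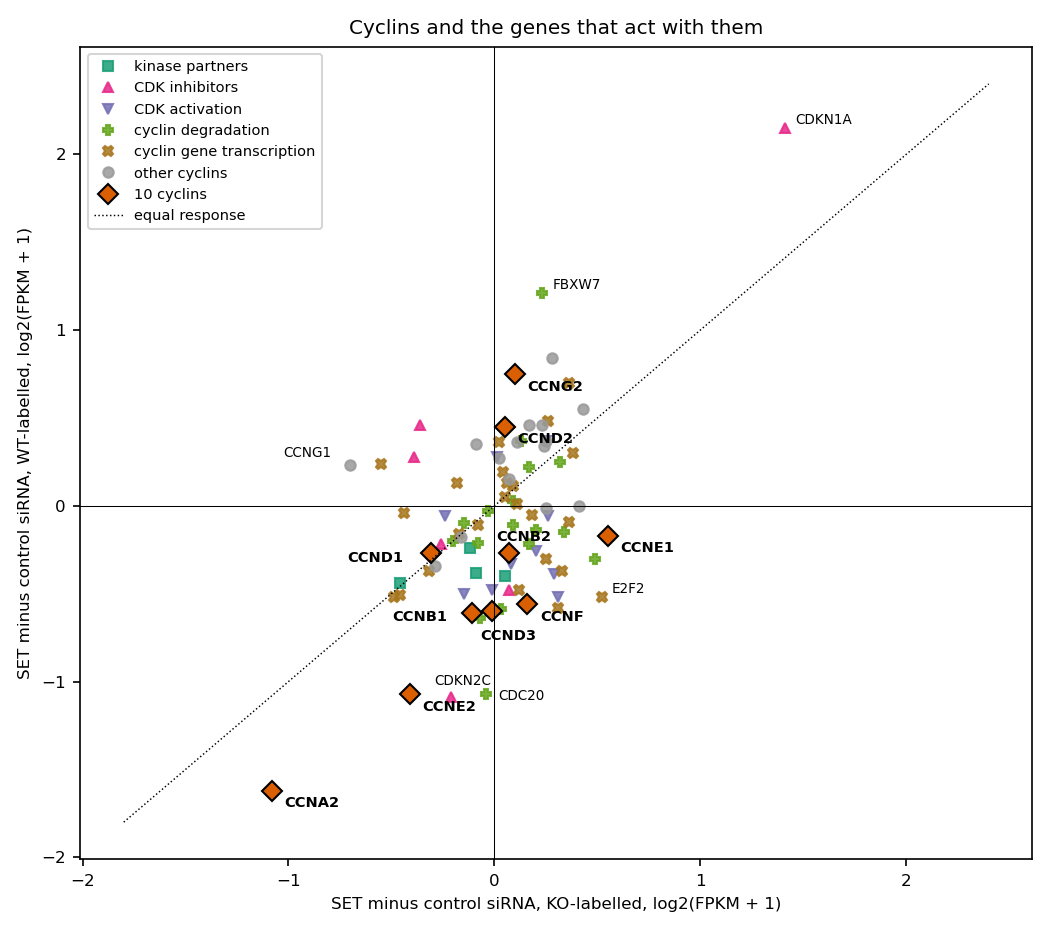
Change with SET siRNA in WT-labelled cells (y axis) against that in KO-labelled cells (x axis), both in log2(FPKM + 1), for the 10 cyclins (diamonds) and 6 lists of related genes. The dotted line marks equal responses and CCND1 lies nearest to it among the cyclins, while CCNE1 lies right of 0 and below 0.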

How the data were processed

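The data were RNA sequencing libraries of Trizol RNA made with a TruSeq kit, per the labels' protocols. bcl2fastq 1.8.4, TopHat2 2.0.4 and Cufflinks 2.0.2 are named in the submitters' processing notes. Per the file headers, the authors deposited FPKM per gene with confidence bounds and a status, 1 table per library. No source used here gives the genome build, the annotation or the strand setting. File starts were raised by 1 to count from 1.

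Requiring 2 libraries at FPKM 1 or above left 14813 tested and 10780 untested entries. limma 3.58.1 in R 4.3.3 fitted log2(FPKM + 1) of all 10 libraries in 4 groups (eBayes with trend), and a Benjamini-Hochberg adjusted p below 0.05 over all tested entries was a call. A fold change on this scale understates the change of low genes, and folds of group means are on the FPKM scale. Intervals are 95%. Python 3.11.15 with numpy 2.4.6, pandas 2.3.3 and matplotlib 3.10.9 did the rest. The authors' upper bound, read as 2 SD, gave implied fragments of 93 to 9266 per cyclin and library. Of low implied numbers 65.3 to 66.6% were whole within 0.05, so depth is only relative and no count test was run.

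Named genes were the 10 cyclins, SET, CDKN1A, MDM2 and, from each list, up to 4 called genes with the largest change. For 5 cyclins the 3 closest genes by correlation were added, small RNAs left out. EXOSC9, INTS8, the neighbours of cyclins, FOXM1, MYBL2, RBL2, SKP2 and UBE2C were chosen after their values were seen. So were CDKN2C, FOXO1, E2F1, CCNT2 and CCNB3 in KO-labelled cells and CCNG1 in WT-labelled cells. The cyclins and lists were chosen with earlier results of these data known. The closing part gives the effect of a smaller pseudocount, of other filters and scalings, of array weights, of dropping the trend, of the replicate number as a block, of smaller sets of libraries and of each library left out.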

Additional observations from a re-analysis of the deposited data

Results flagged for a closer look

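For 9 of the 10 cyclins the 2 lines answered SET siRNA differently in limma's test of the difference itself. Of all tested genes 19.1% were called in that test, 8.60% lower and 10.5% higher. The difference is the WT-labelled minus the KO-labelled response in log2(FPKM + 1), from 3 and 3 against 2 and 2 libraries. The values were -0.54 for CCNA2, -0.49 for CCNB1, -0.34 for CCNB2, -0.59 for CCND3, -0.72 for CCNE1, -0.66 for CCNE2 and -0.72 for CCNF, and 0.40 for CCND2 and 0.65 for CCNG2. The call for CCNB2 was lost under quantile normalization (-0.26, adjusted p = 0.0884). The call was also lost without the first or second KO SET siRNA library, which leaves 1 in that group. The estimates were then -0.36 and -0.32. CCNA2 and CCNE2 fell in both lines and fell further in WT-labelled cells. CCNE1 fell in WT-labelled and rose in KO-labelled cells. For CCNB1, CCNB2, CCND2, CCND3, CCNF and CCNG2 the change was called in WT-labelled cells and not in KO-labelled cells, except that CCNB1 was called in both under quantile normalization (-0.18 in KO-labelled cells), and CCNB2, CCNF and CCNG2 were called in KO-labelled cells at 0.16, 0.23 and 0.23 with 1 of the KO control libraries left out. Groups of 2 or 3 libraries were too small for a check of single libraries as outliers.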

How the results depend on the processing

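The number of cyclins called stayed within 1.5 times under every alternative run. Of all genes, 2831 were called for the difference of responses, against 1143 to 4589 with a library left out, and 5571 in KO-labelled cells, against 3463 to 5832 with a library left out and 3202 in a fit of only the libraries compared. Leaving out a library gave 10 to 10 in WT-labelled cells, 4 to 6 in KO-labelled cells, 8 to 9 for the difference of responses, and 6 to 7 and 9 to 9 between the lines with control and SET siRNA; where 1 library was left in a group it is assumed to vary like the others. With the replicate number as a block the counts were 10, 4, 9, 7 and 9. Of all tested genes 57.2%, 40.7%, 23.0%, 48.5% and 48.8% were called in the same order. The 4 in KO-labelled cells is near its share. Same-numbered libraries deviated together with correlations of -0.101 to 0.263, and differently numbered ones with -0.263 to 0.163. In a KO-labelled group the 2 libraries deviate from their mean by opposite amounts. Values with such a group therefore come in pairs of opposite sign, and -0.263 mirrors 0.263. Within a line, same-numbered control and SET siRNA libraries gave -0.101 to 0.0852, and the numbers were not taken to pair them. The highest values, 0.233 and 0.263, were same-numbered control libraries of the 2 lines. A shared effect of the replicate number across lines cannot be told from these values. Of 940 values of single genes under alternatives, 919 kept direction and side of the threshold, 7 lost and 4 gained a call, and 10 changed sign, none of them called. Leaving out a library moved CCNB2 between -0.03 and 0.16, CCND3 between -0.11 and 0.08 and CCNG2 between -0.04 and 0.23 in KO-labelled cells. Between the lines with control siRNA it moved CCND3 between -0.10 and 0.09 and CCNF between -0.04 and 0.09, where quantile normalization gave CCND3 0.01. CCNB1 in KO-labelled cells was called under quantile normalization (-0.18, adjusted p = 0.0431). The cause was not tested. CCNE2 rests on the fewest implied fragments, 93 to 352 per library.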
